A study of Mus musculus with 18 samples.

Results

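The MHC class II presentation genes examined here are H2-Aa, H2-Ab1, H2-Eb1, Cd74, Ciita, H2-DMa, H2-DMb1 and H2-Oa. They were taken by gene symbol, and all 8 had 1 row each among the 54446 genes of the expression table. The samples were 18 libraries of peritoneal eosinophils from Il5Tg mice, labelled C57BL/6, which carry an Il5 transgene and therefore have large numbers of eosinophils. T and B cells had been depleted with anti-Thy1.2 and anti-B220 beads, and after culture the eosinophils were selected again with anti-Siglec-F beads. Every library, controls included, came from an 18 h culture in which 5 apoptotic cells (ACs) were given to each eosinophil, the ACs being wild-type thymocytes killed with dexamethasone. The Type 1 experiment held ACs, E. coli + ACs, IFN-γ + ACs and IFN-γ + E. coli + ACs, and the IL-4 experiment held its own ACs and IL-4 + ACs, with 3 libraries in each of the 6 groups. The study describes the combination as IFN-γ followed by E. coli, and its methods do not give the time of each stimulus. The study states that the replicates were different mice. The age of the eosinophil donors is not given in the sources used here. Each stimulus was compared with the ACs of its own experiment, so what is described is the response to a stimulus in the presence of ACs.

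MHC class II molecules present peptides from endosomes to CD4+ T cells. The α and β chains, encoded here by H2-Aa, H2-Ab1 and H2-Eb1, pair in the endoplasmic reticulum and are held by the invariant chain, encoded by Cd74. Endosomal proteases degrade the invariant chain to a fragment in the groove, H2-DM (H2-DMa with H2-DMb1 or H2-DMb2) exchanges that fragment for a peptide, and H2-O (H2-Oa with H2-Ob) restrains H2-DM. Ciita encodes CIITA, the coactivator that binds no DNA itself and joins the RFX, NF-Y and CREB complex on the shared X and Y boxes of these promoters. Professional antigen-presenting cells such as B cells, dendritic cells and macrophages express class II molecules, and IFN-γ induces them in many other cells through IRF1 and CIITA.

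Of the members, 6 lay within 224.3 kilobases of chromosome 17 of GRCm38, from the start of H2-Oa (34092340 to 34095234) through H2-DMa (34119541 to 34139101), H2-DMb1 (34153072 to 34160230), H2-Ab1 (34257689 to 34269419) and H2-Aa (34282744 to 34287823) to the end of H2-Eb1 (34305867 to 34316674). Genes of the class I pathway, Psmb9, Tap1, Psmb8 and Tap2, lay between H2-DMb1 and H2-Ab1. Ciita and Cd74 lay elsewhere.

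RefSeq promoters of 300 bases, 250 of them before the start site, were at hand for 5 of the 8 members, H2-Aa, H2-Eb1, H2-DMa, H2-DMb1 and H2-Oa. In 4 of these 5, all but H2-DMa, an X-like motif (CNNGNAAC) was followed 25 or 26 bases later by a Y box (TGATTGG), both on the strand of the gene and without overlap. The following stretches are shown because the shared spacing is what these promoters have in common, with the X-like motif and the Y box in capitals.
H2-Aa, chr17:34287867-34287912, minus strand: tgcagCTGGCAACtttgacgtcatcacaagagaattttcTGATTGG
H2-Eb1, chr17:34305768-34305812, plus strand: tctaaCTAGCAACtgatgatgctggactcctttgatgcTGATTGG
H2-Oa, chr17:34092295-34092340, plus strand: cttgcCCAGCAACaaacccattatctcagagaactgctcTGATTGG
The sequences are RefSeq's on GRCm38.p6. The pair of H2-DMb1 lay in a stretch annotated as 5′ UTR by GENCODE and is not shown. Of 32851 promoters of the same length, searched on both strands, 39.1% held the X-like motif and 7.82% the Y box, and 0.183% (60) held the pair within 8 to 30 bases. The motif letters were chosen after these promoters had been read, so the shares are descriptions. Of class II genes outside the members, H2-Ob and H2-Eb2 also held the pair, 23 and 25 bases apart, and H2-DMb2 did not. By RefSeq's start sites the 3 stretches shown lie upstream of the genes, while the start of H2-Oa in GENCODE falls on the last base of its Y box. As given below, the genes they belong to differed in response.

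The libraries held from 779421 to 7782072 counted reads, with the fewest in replicate 3 of both groups of the IL-4 experiment. In those shallow libraries 3 reads stood for a normalized count of 15.42 (IL-4 + ACs) or 16.08 (ACs), so low values there were coarse. The deposited values are read counts scaled by the size factor of each library, called normalized counts below. CEL-Seq2 reads only the 3' ends of transcripts, and levels were compared within a gene, not between genes. A transcript was past the threshold when it changed at least 1.5-fold with an adjusted p under 0.05 (limma, Benjamini-Hochberg adjustment over all genes tested). Changes are on the scale of log2(normalized count + 1), which understates the change of genes with low counts.

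Surface receptors that define eosinophils were present in every library, and transcripts of granule proteins ranged from near absent to abundant. Siglecf, the receptor used for selection, ranged from 1514 to 3367 and Ccr3, the eotaxin receptor, from 2623 to 4934 normalized counts, while the granule protein genes Epx and Prg3 were at most 25.7 and 26.8 and at 0 in some libraries. Prg2 (major basic protein) ranged from 57.5 to 270.3 and the granule ribonuclease gene Ear6 from 336 to 8689 normalized counts. Macrophage markers were also detected, their 11 genes summing to between 14657 and 34566 normalized counts. Of the 3 taken as defining, Adgre1 (F4/80, which mouse eosinophils also carry) ranged from 1698 to 3140, Csf1r (the M-CSF receptor) from 814 to 1779 and C1qa from 70.4 to 1306. The defining markers of other presenting cells were low. Of the B cell genes, Pax5 did not exceed 4.1, Ms4a1 17.99 and Cd79a 46.6. Of the dendritic cell genes, Zbtb46 did not exceed 22.57 and Flt3 6.51, and Flt3 was at 0 in all 6 libraries with IFN-γ. In bulk libraries fewer cells of a type and less RNA per cell cannot be told apart.

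With IFN-γ, the genes for the class II chains, the invariant chain, CIITA and both chains of H2-DM rose, and H2-Oa did not. Ciita, with few reads outside the IFN-γ groups, entered the fit of 12 libraries only through them, so it had to differ, and it is left out of the counts of members here and in the other comparisons of this experiment. Of the 7 other members 6 were past the threshold upward and 0 downward, against 11.4% of all 10166 genes tested upward and 9.96% downward. The same 6 showed no overlap between the groups, which was the case for 22.6% of all genes in that direction. The median difference over the 7 members was 1.96 on the log2 scale, against 0 over all genes.

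H2-Ab1, the β chain of I-A, had normalized counts of 468, 450 and 432 with ACs and 2504, 2903 and 2409 with IFN-γ + ACs. Every library with IFN-γ was above every control, a difference of 2.53 ± 0.13 (log2, SE, n = 3 per group) or 5.76-fold, with an adjusted p of 1.7e-11. H2-Aa, the α chain of I-A, had 322, 295 and 307 with ACs and 1459, 1527 and 1172 with IFN-γ + ACs. This was a difference of 2.16 ± 0.16 (log2, SE) or 4.46-fold, with an adjusted p of 5.7e-09.

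H2-Eb1, the β chain of I-E, had 239, 349 and 218 with ACs and 1258, 1217 and 671 with IFN-γ + ACs. Its replicate 3 with IFN-γ was well below the other two, yet every library with IFN-γ was above every control, and the difference was 1.94 ± 0.22 (log2, SE, 3.83-fold) with an adjusted p of 1.7e-06. The α chain gene of I-E is not expressed in mice of the H2b haplotype such as C57BL/6, and the row of H2-Ea-ps, looked up after the other values were seen, was at 0 in all 18 libraries. Cd74, the invariant chain gene on chromosome 18 (60803848 to 60812652), had 225, 216 and 223 with ACs and 869, 981 and 640 with IFN-γ + ACs. The groups did not overlap, and the difference was 1.88 ± 0.19 (log2, SE, 3.68-fold), with an adjusted p of 3.6e-07.

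Ciita, on chromosome 16 (10480059 to 10528418), was almost absent in the Type 1 experiment without IFN-γ. With ACs the 3 libraries held 0, 0 and 4 reads, and with IFN-γ + ACs 18, 33 and 15 reads, which are normalized counts of 23.7, 37.8 and 30.8. All IFN-γ libraries were thus above all controls. The difference of 4.27 ± 0.77 (log2, SE) depended on the pseudocount and was 2.58 with a pseudocount of 5, so its size is uncertain. Ciita entered the fit only through the IFN-γ groups, so the minimum level settled this test and its p is left out. For the same reason its adjusted p values in the other comparisons of this experiment, given below, are descriptions only.

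H2-DMa, the α chain of the peptide exchanger, had 26.02, 27.2 and 24.5 with ACs and 144, 235 and 152 with IFN-γ + ACs. It changed by 2.69 ± 0.30 (log2, SE, 6.45-fold), with an adjusted p of 1.5e-06. H2-DMb1, the β chain, rose from 30.1, 33.8 and 32.6 to 119, 140 and 125, a difference of 1.96 ± 0.28 (log2, SE, 3.88-fold) with an adjusted p of 2.5e-05. H2-DMb1 has a close copy, H2-DMb2, which was at most 10.28 in any library, and reads shared by both may not have been counted.

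H2-Oa, the α chain of the H2-DM inhibitor, went the other way in value. It had 28.5, 19.7 and 31.0 with ACs and 11.9, 8.02 and 16.4 with IFN-γ + ACs, and the groups did not overlap, as for 20.3% of all genes in that direction. The difference of -1.09 ± 0.45 (log2, SE) did not pass the threshold, with an adjusted p of 0.080, and its 95% interval ran from -2.03 to -0.15. With array weights it passed, at -1.23 and an adjusted p of 0.027. Its promoter held the same motif pair as those of H2-Aa, H2-Eb1 and H2-DMb1. H2-Ob, its partner, ranged from 0 to 30.84 over the 18 libraries and was below the mean of 10 needed for a test in the Type 1 experiment.

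**Figure D1:**
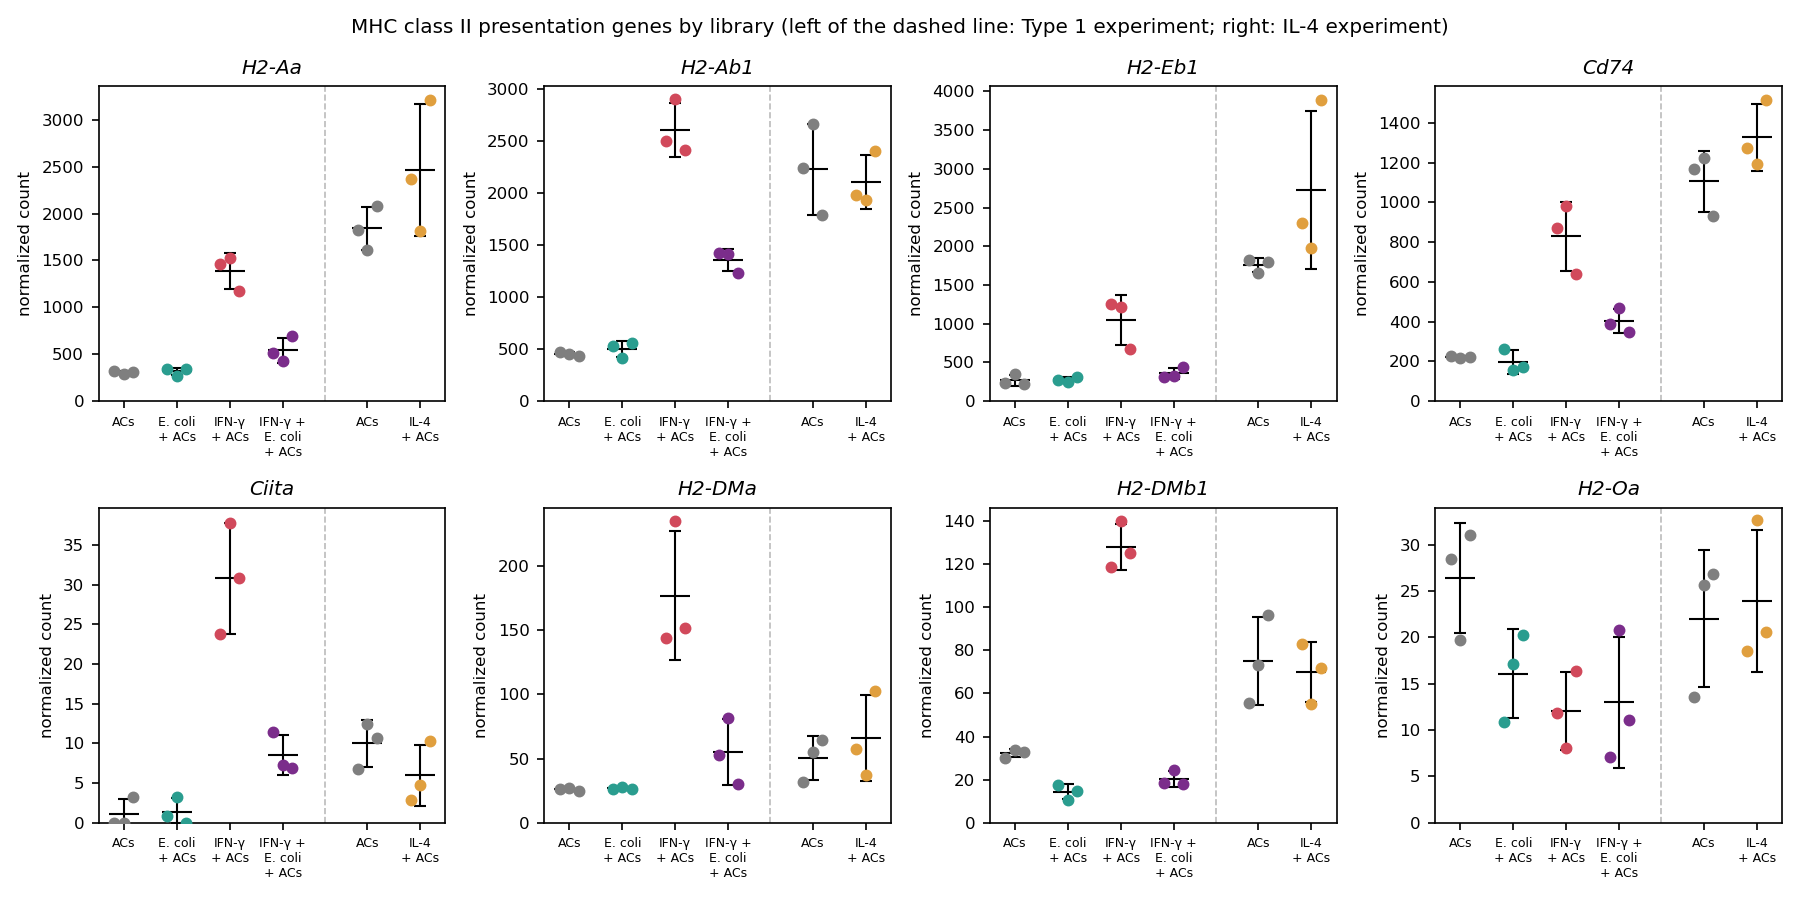
Normalized count (vertical axes, linear and starting at 0) of each of the 8 genes in the 18 libraries. Points are libraries, horizontal marks are means and bars are 1 SD (n = 3, cut at 0). In the Type 1 experiment 7 genes were highest with IFN-γ + ACs and lower again with IFN-γ + E. coli + ACs, whereas H2-Oa was highest with ACs. In the IL-4 experiment no gene passed the threshold between the groups.

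E. coli without IFN-γ left the class II chains and Cd74 near the level of ACs. Of the 7 members counted 0 passed the threshold upward, against 5.05% of all genes, and 1 passed downward, against 5.25% (limma). At an unadjusted p under 0.05 the upward count was also 0, as it was with edgeR and with DESeq2. H2-Aa, with 339, 273 and 339, differed from ACs by 0.03, with a 95% interval from -0.30 to 0.37. For H2-Ab1 the difference was 0.15 (-0.11 to 0.41), for H2-Eb1 0.09 (-0.37 to 0.55) and for Cd74 -0.21 (-0.60 to 0.19). The intervals of H2-Aa, H2-Ab1 and H2-Eb1 lay within 1.5-fold in either direction, and that of Cd74 reached slightly past it downward. H2-DMa differed by 0.04 (-0.59 to 0.68), and Ciita was at 1, 4 and 0 reads.

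The member that fell with E. coli was H2-DMb1, with 17.58, 10.63 and 14.95 against 30.1, 33.8 and 32.6 with ACs. Its groups did not overlap, as for 18.4% of all genes in that direction. The difference was -1.13 ± 0.28 (log2, SE), with an adjusted p of 0.0091. Without E. coli replicate 2 it was -0.94 with an adjusted p of 0.054, so the call rests on that library. H2-Oa, with 10.9, 17.2 and 20.2, differed by -0.70 with an adjusted p of 0.36 and overlapped the controls.

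When E. coli was added to IFN-γ, the class II transcripts were lower than with IFN-γ alone. Of the 7 members counted 6 were past the threshold downward and 0 upward, against 8.61% and 5.96% of all genes. At an unadjusted p under 0.05 the upward count was again 0, and edgeR and DESeq2 gave 0 upward too. The same 6 showed no overlap downward, against 15.3% of all genes. The median difference over the 7 members was -1.36 on the log2 scale, against -0.03 over all genes.

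H2-DMb1 fell furthest, with 18.5, 24.4 and 17.9 with IFN-γ + E. coli + ACs against 119, 140 and 125 with IFN-γ + ACs. The difference was -2.61 ± 0.28 (log2, SE) with an adjusted p of 2.7e-06. H2-DMa, at 52.7, 81.8 and 30.4, was lower by a log2 difference of -1.74 ± 0.30 (adjusted p 0.00044). Both chains of the exchanger were thus far below their IFN-γ level, with no overlap between libraries.

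Among the chains, H2-Eb1 with 308, 327 and 446 normalized counts had a difference of -1.5 ± 0.22 (log2, SE, adjusted p 8e-05). H2-Aa with 515, 429 and 690 differed by -1.36 ± 0.16 (log2, SE, adjusted p 7.7e-06). H2-Ab1 had 1420, 1416 and 1232, and fell least, by 0.94 on the log2 scale (adjusted p 3.6e-05). The 3 chains therefore did not fall to the same degree in value, although the differences between genes were not tested.

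Cd74 with 391, 468 and 349 differed from IFN-γ alone by -1.03 ± 0.19 (log2, SE, adjusted p 0.00073). Ciita held 8, 6 and 5 reads, below the 18, 33 and 15 reads with IFN-γ alone. Its difference of -1.74 ± 0.77 missed the threshold with limma and a pseudocount of 1, with an adjusted p of 0.12. It passed with a pseudocount of 5 (-1.40, adjusted p 0.011), with edgeR (-1.82, adjusted p 0.036) and with DESeq2 (-1.83, adjusted p 0.026). H2-Oa, with 7.13, 20.77 and 11.04, differed by 0.03, with an interval from -0.91 to 0.96.

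Against ACs, the combination left 4 of the 7 members counted past the threshold upward and 0 downward, where 14.7% and 17.2% of all genes passed (limma). At an unadjusted p under 0.05 the downward count was 2, H2-DMb1 and H2-Oa, and with edgeR and DESeq2 it was 0. H2-Ab1 remained 3-fold higher (log2 difference 1.59 ± 0.13, adjusted p 9.9e-09), Cd74 1.80-fold (0.85 ± 0.19, adjusted p 0.0015) and H2-Aa 1.73-fold (0.79 ± 0.16, adjusted p 0.00063). H2-DMa was higher by 0.95 ± 0.30 (adjusted p 0.018), but without replicate 2 of the combination the value was 0.61 (adjusted p 0.11) and without ACs replicate 3 it was 0.91 (adjusted p 0.052). Ciita, outside the count, was higher by 2.53 ± 0.77 (adjusted p 0.014), and without ACs replicate 1 or replicate 2 by 2.18 (adjusted p 0.056). H2-Eb1 was not past the threshold, at 0.43 ± 0.22 (adjusted p 0.13), except without ACs replicate 2, where it was 0.64 (adjusted p 0.042). H2-DMb1 stood at -0.65 ± 0.28 (adjusted p 0.071) and H2-Oa at -1.07 ± 0.45 (adjusted p 0.067), and without replicate 2 of the combination both passed the threshold, at -0.78 (adjusted p 0.045) and -1.44 (adjusted p 0.021). With a common upper quartile as the scale the median of all genes in this comparison shifted to -0.18, and both also passed, at -0.78 and -1.20.

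Set against E. coli + ACs, the combination raised 4 of the 7 members counted and lowered 0, against 9.79% and 9.57% of all genes (limma). At an unadjusted p under 0.05 the downward count was 0, as with edgeR and DESeq2. H2-Ab1 (1.44 ± 0.13, adjusted p 1e-07) and Cd74 (1.06 ± 0.19, adjusted p 0.00044) differed most clearly, followed by H2-Aa (0.76 ± 0.16, adjusted p 0.0019), which without replicate 3 of the combination was at 0.57, short of 1.5-fold. H2-DMa (0.90, adjusted p 0.035) and, outside the count, Ciita (2.23, adjusted p 0.041) lost their calls in most leave-outs, Ciita reaching 1.74 (adjusted p 0.15) without E. coli replicate 3 and H2-DMa 0.57 (adjusted p 0.16) without replicate 2 of the combination. H2-Eb1 (0.34) and H2-DMb1 (0.48) were not past the threshold.

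Whether the effect of IFN-γ differed with and without E. coli was tested as an interaction, the difference between the log2 change with IFN-γ in the presence and in the absence of E. coli. IFN-γ came first in the combination, so the part of the order and timing of the stimuli cannot be told apart. The interaction is given on the log2 scale. It was negative and past the threshold for 5 of the 7 members counted, against 4.28% of all genes, and positive for 0, against 3.16% (limma; with edgeR and DESeq2 and at an unadjusted p under 0.05 also 0). H2-Eb1 had the interaction -1.59 ± 0.31 (adjusted p 0.0034), H2-Aa -1.40 ± 0.23 (adjusted p 0.00083) and H2-Ab1 -1.09 ± 0.18 (adjusted p 0.00089). H2-DMa (-1.79, adjusted p 0.015) lost the call without IFN-γ replicate 2 (-1.56, adjusted p 0.056). H2-DMb1 (-1.47, adjusted p 0.026) lost it without any 1 of 6 libraries, with values between -1.51 and -1.32, namely the 3 of ACs, E. coli replicates 1 and 3 and IFN-γ replicate 2, and with all genes above 0 tested (adjusted p 0.061). Cd74 (-0.82, adjusted p 0.067) missed it, but passed with edgeR (-0.85, adjusted p 0.048) and DESeq2 (-0.85, adjusted p 0.028), and without E. coli replicate 2 (-0.98), IFN-γ replicate 3 (-1) or replicate 2 of the combination (-0.94).

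**Figure D2:**
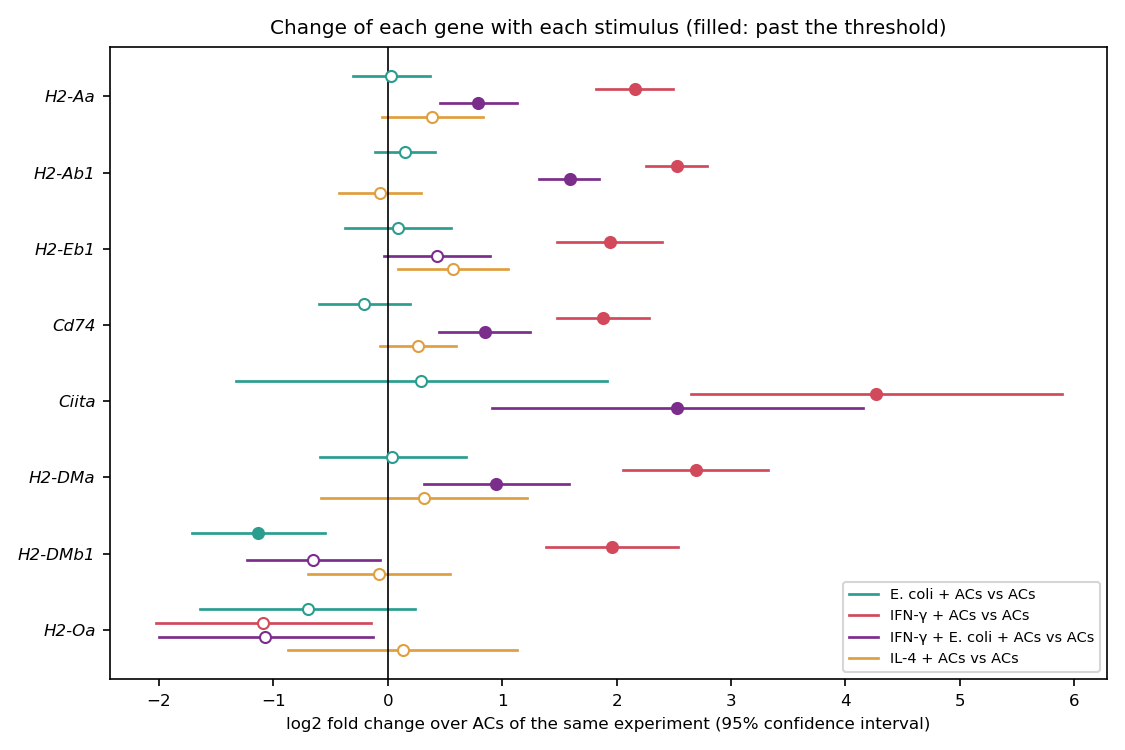
Log2 fold change of each gene over the ACs of its own experiment (horizontal axis), with its 95% confidence interval, for E. coli, IFN-γ, IFN-γ + E. coli and IL-4. Filled points passed the threshold. IFN-γ alone gave the largest rise for 7 genes, among them Ciita, which entered the fit only through the IFN-γ groups and had to differ. For H2-Ab1 the value fell from 2.53 to 1.59 with E. coli added. Ciita was not tested with IL-4.

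In the IL-4 experiment no class II transcript changed past the threshold. Of the 7 members tested 0 passed in either direction (limma), against 0.740% of all 10669 genes upward and 0.347% downward. At an unadjusted p under 0.05 the counts were 1 upward and 0 downward, and edgeR and DESeq2 both gave 0. Ciita was below the mean of 10 in these 6 libraries and was not tested, with 9, 16 and 2 reads with ACs and 5, 9 and 2 with IL-4 + ACs.

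H2-Eb1 came nearest, with 1829, 1651 and 1796 with ACs and 2304, 1981 and 3886 with IL-4 + ACs. The groups did not overlap, as for 8.45% of all genes upward, and the difference was 0.57 ± 0.22 (log2, SE, 95% interval 0.09 to 1.05, adjusted p 0.43). H2-Aa had 1828, 1615 and 2080 with ACs and 2367, 1814 and 3212 with IL-4 + ACs, a difference of 0.39 (-0.05 to 0.83). For H2-Ab1 the difference was -0.07 (-0.43 to 0.29) and for Cd74 0.26 (-0.07 to 0.60). The highest value of H2-Aa, H2-Ab1, H2-Eb1, Cd74 and H2-DMa among the IL-4 libraries was that of the shallow replicate 3. Without replicate 3 of both groups, an alternative chosen after the data were seen, H2-Eb1 was at 0.30 (adjusted p 0.11), H2-Aa at 0.27 and H2-Ab1 at -0.32, and still 0 passed. The intervals of H2-DMa (0.32, -0.58 to 1.22), H2-DMb1 (-0.08, -0.70 to 0.54) and H2-Oa (0.13, -0.87 to 1.13) were wider. The interval of H2-Ab1 alone among the 7 lay within 1.5-fold in either direction, so changes of that size are not excluded for the other 6.

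The response to IL-4 was lower than that to IFN-γ for 6 of the 7 members tested, as the difference between the 2 log2 changes, each against its own ACs, against 8.09% of all 10414 genes. It was higher for 0 (limma, edgeR, DESeq2 and an unadjusted p under 0.05), against 6.17%. The difference was -2.60 ± 0.20 for H2-Ab1 (adjusted p 1.2e-08), -2.37 ± 0.51 for H2-DMa (adjusted p 0.0028), -2.04 ± 0.38 for H2-DMb1 (adjusted p 0.00075), -1.77 ± 0.26 for H2-Aa (adjusted p 5.7e-05), -1.62 ± 0.26 for Cd74 (adjusted p 0.00016) and -1.37 ± 0.34 for H2-Eb1 (adjusted p 0.0079). H2-Oa was at 1.22 ± 0.63 (adjusted p 0.22). Stimulus and experiment change together here, so the part of the experiment cannot be told apart.

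Before any stimulus the experiments already stood at different levels of class II transcripts. With ACs alone the mean of H2-Aa was 308 in the Type 1 and 1840 in the IL-4 experiment, a ratio of 5.98. The ratio was 6.55 for H2-Eb1, 5 for Cd74 and 4.95 for H2-Ab1. It was 2.34 for H2-DMb1 and 1.95 for H2-DMa, and 0.834 for H2-Oa. Ciita, with 9, 16 and 2 reads against 0, 0 and 4, had too few for a ratio. Of the 7 other members 6, all but H2-Oa, had every ACs library of the IL-4 experiment above every ACs library of the Type 1 experiment, as had 22.4% of 10414 genes. No test was made, since the experiment cannot be told apart from any other difference between the libraries, among them depth. The H2-Aa, H2-Eb1 and Cd74 levels of the IL-4 experiment's ACs also lay, in mean, above those with IFN-γ + ACs (1386, 1049 and 830), whereas for H2-Ab1, H2-DMa, H2-DMb1 and Ciita the IFN-γ means were the higher.

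Across all 18 libraries, each taken relative to the ACs of its experiment, H2-Aa, H2-Ab1, H2-Eb1, Cd74 and H2-DMa varied together, with pairwise Pearson r from 0.79 to 0.94. With these genes r was 0.62 to 0.78 for H2-DMb1 and 0.68 to 0.92 for Ciita, and it was 0.56 between H2-DMb1 and Ciita. H2-Oa had negative r with each of the other 7, from -0.69 to -0.15. These are descriptions over libraries that share groups, stimuli and ACs. Outside the 8 members, the genes whose pattern was most like that of Cd74 were Tgm2 (transglutaminase 2, r = 0.958), C3 (complement component 3, 0.949), Hk3 (hexokinase 3, 0.943), Pla2g16 (0.939) and Fbxo6 (0.929), among 6907 genes.

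The other genes of the pathway did not all follow the class II pattern. Of 9 genes on the way from the IFN-γ receptor to Ciita, 3 rose with IFN-γ (among them Irf1 by 2.49 and Socs1 by 1.48 on the log2 scale) and 1 fell (Ifngr1, -0.60). Of all genes tested 11.4% rose with IFN-γ and 9.96% fell. Irf1 encodes a factor that acts at the IFN-γ-responsive promoter of Ciita, and Socs1 a feedback inhibitor. When E. coli was added to IFN-γ, 2 of the 9 rose (Ifngr1 by 0.85 and Ifngr2 by 0.63) and 0 fell (limma; 0 at an unadjusted p under 0.05, and with edgeR and DESeq2). Irf1 was at 0.33 and Socs1 at -0.03 in that comparison, and neither passed the threshold. Of all genes 5.96% rose there and 8.61% fell. Of the 7 genes for RFX, NF-Y and CREB1, 0 changed with IFN-γ (limma; 0 also by the other tools and at an unadjusted p under 0.05), and with E. coli added Nfya rose by 0.74 (adjusted p 0.023).

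The class I pathway, of which 4 genes lie among the class II genes on chromosome 17, moved otherwise in value. It presents peptides from the cytosol, and its coactivator NLRC5 is a relative of CIITA. Of 9 class I genes 7 rose with IFN-γ, with a median log2 difference of 0.91, led by Nlrc5 (1.80), Psmb9 (1.35) and Tap1 (1.13), and 0 fell (limma, edgeR, DESeq2 and an unadjusted p under 0.05). Of all genes 11.4% rose with IFN-γ and 9.96% fell. With the combination 8 of 9 were above ACs, against 14.7% of all genes, with a median of 1.34. E. coli added to IFN-γ raised Nlrc5 by 0.87 and Tap2 by 0.83 and lowered 0 of the 9 (limma; 0 at an unadjusted p under 0.05 and by edgeR and DESeq2), whereas it lowered 6 of the 7 class II members counted. Of all genes 5.96% rose in that comparison and 8.61% fell. The median differences were 0.39 for the class I list and -1.36 for the class II members. The difference between the 2 lists was not tested.

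The list for endosomal processing held 9 proteases, which cut the invariant chain and antigens, the thiol reductase gene Ifi30 and Cst3, which encodes the protease inhibitor cystatin C. Of these 11 genes 6 rose with IFN-γ and 0 fell (limma, edgeR, DESeq2 and an unadjusted p under 0.05). Ifi30 rose by 1.55, Ctsb by 1.01, Ctss (cathepsin S, which cuts the invariant chain) by 0.98 and Sppl2a (which clears its remnant from the membrane) by 0.87. With E. coli added 7 of the 11 fell and 0 rose (1 upward at an unadjusted p under 0.05, 0 with edgeR and DESeq2). Those that fell included Ctsl (-2.00), Ctsb (-1.30), Ctss (-1.05) and Ifi30 (-1.03), while Sppl2a was at 0.37. Of all genes 11.4% rose and 9.96% fell with IFN-γ, and 8.61% fell and 5.96% rose with E. coli added. The median of the 11 was 0.71 with IFN-γ and -0.89 for E. coli added to IFN-γ. E. coli without IFN-γ lowered 3 of the 11, Ctsl (-1.31), Lgmn (-0.79) and Ifi30 (-0.71), and raised 0 (limma, edgeR and DESeq2; 2 at an unadjusted p under 0.05), with a median of -0.30. Of all genes 5.25% fell in that comparison and 5.05% rose. The interaction was past the threshold for 3 of the 11, all negative, against 4.28% of all genes in that direction. No test compared this list with the class II genes.

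Among genes for T cell costimulation, Cd86 and Cd40 rose with IFN-γ and were lower again when E. coli was added. Cd86 rose by 1.5 with IFN-γ and fell by 1.20 when E. coli was added, and Cd40 rose by 1.56 and fell by 0.90. With E. coli alone they parted, Cd86 falling by 0.81 (adjusted p 0.0072) and Cd40 rising by 0.61 (adjusted p 0.029). Cd274, which encodes the inhibitory ligand PD-L1, rose by 3.15 with IFN-γ and by a further 0.71 with E. coli added, and E. coli alone raised it by 1.27. With IL-4, 1 of the 6 tested passed, Pdcd1lg2 (PD-L2), which was higher by 4.79, where 0.740% of all genes passed upward. Its mean with ACs was 5.89, below the minimum of 10. It thus entered the fit only through the IL-4 libraries, so the minimum level settled this test and its p is left out. It held 9, 14 and 0 reads with ACs and 179, 233 and 29 with IL-4 + ACs, without overlap. The size depends on the control at 0, the shallow replicate 3, and was 3.7 without it and 3.72 with a pseudocount of 5. The call was lost without any 1 of the IL-4 libraries. Of the 6 genes for class II turnover and traffic, Cd9, a tetraspanin, rose with IFN-γ (2.12), with E. coli (1.88), with the combination (3.47) and with IL-4 (0.96), and March1, the ligase that removes class II molecules from the surface, was not past the threshold in any of these.

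**Figure D3:**
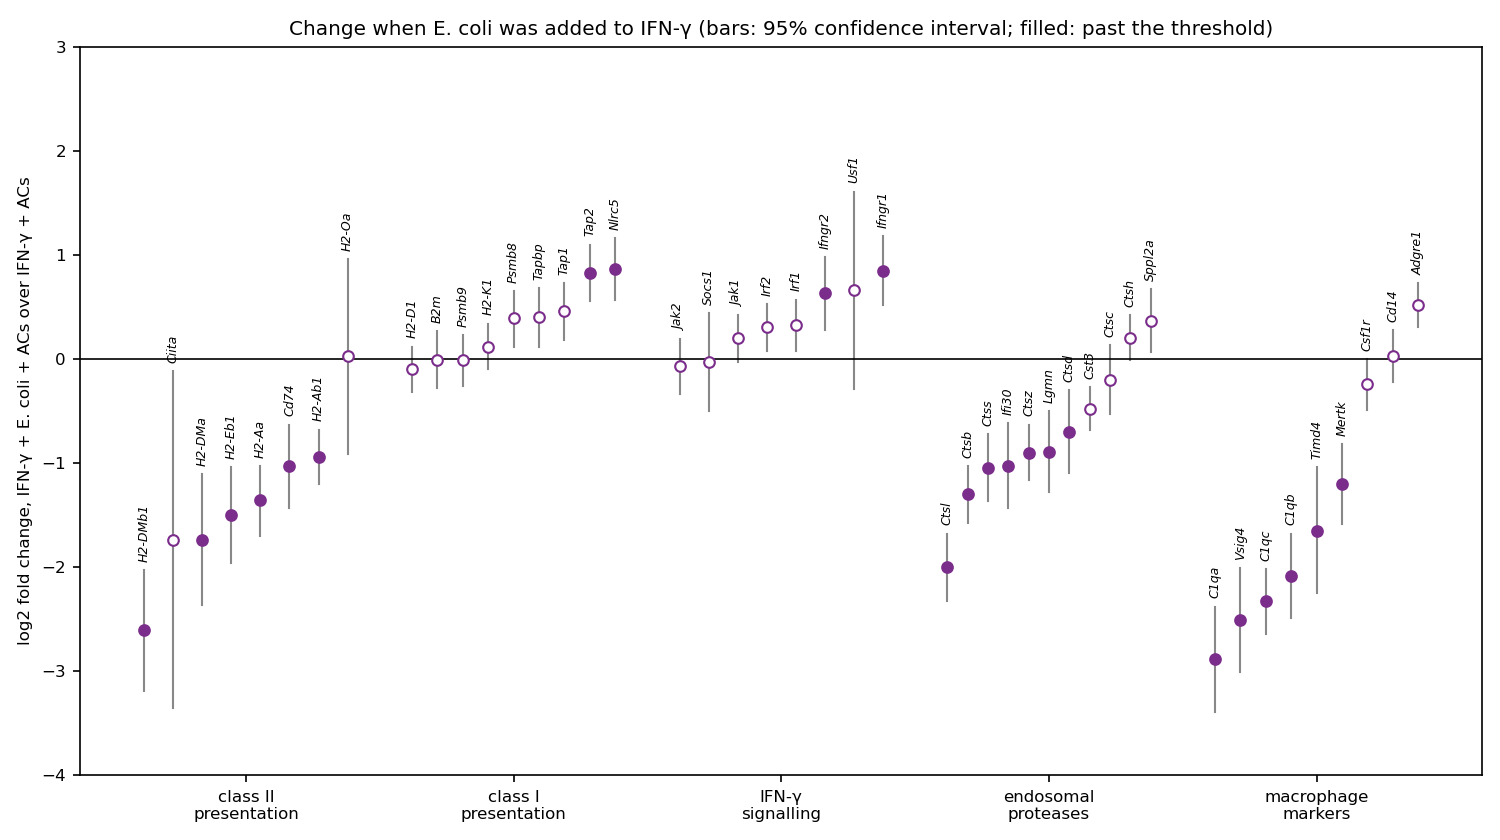
Log2 fold change of IFN-γ + E. coli + ACs over IFN-γ + ACs (vertical axis), with 95% confidence intervals, for the class II members, 3 other lists of the pathway and macrophage markers. Filled points passed the threshold. The class II members (median -1.43 with Ciita) and the endosomal processing list (median -0.89) lie mostly below 0, the class I genes (median 0.39) around or above it, and most of the macrophage markers lie well below it. Of the tested genes of these lists, some are not drawn.

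Macrophage markers moved with part of these results. Of 10 tested, 3 rose with IFN-γ (Mertk by 1.81, Timd4 by 1.00 and C1qb by 0.90) and Vsig4 fell (-0.68), and when E. coli was added to IFN-γ 7 fell and 0 rose (1 upward at an unadjusted p under 0.05, 0 with edgeR and DESeq2). Those that fell included C1qa (-2.88), Vsig4 (-2.51) and C1qc (-2.33). Of all genes 11.4% rose and 9.96% fell with IFN-γ, and 8.61% fell and 5.96% rose with E. coli added. The summed level of the 11 markers was 19082 to 23756 with ACs, 25540 to 34566 with IFN-γ + ACs and 14657 to 16031 with the combination. In the IL-4 experiment it ranged from 22703 to 32045 with ACs and from 19499 to 30809 with IL-4, the highest of the IL-4 libraries being again replicate 3. Cx3cr1 was at or near 0 throughout. Of the 3 defining markers, C1qa was at 0.39 with IFN-γ and fell with E. coli added (-2.88, above), Csf1r was at -0.15 and -0.24, and Adgre1 at 0.20 and 0.52. For Adgre1 the libraries with E. coli added lay without overlap above those with IFN-γ alone (2717 to 3140 against 1981 to 2202). E. coli without IFN-γ lowered 6 of the 10 macrophage markers (median -1.29), C1qc by 1.51 and Vsig4 by 2.73 on the log2 scale, and raised Cd14 (0.92). Of all genes 5.25% fell with E. coli and 5.05% rose. In that comparison the class II chains and Cd74 were between -0.21 and 0.15, H2-DMa at 0.04, H2-Oa at -0.70 and H2-DMb1 at -1.13, the only member past the threshold. The part of macrophage transcripts in the class II results was not tested.

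The other marker lists also differed between groups. The summed B cell markers, most of it Ighm (the IgM heavy chain), were 903 to 1048 with ACs, 311 to 322 with E. coli + ACs, 98.9 to 183 with IFN-γ + ACs and 158 to 173 with the combination, and in the IL-4 experiment 411 to 468 with ACs and 354 to 576 with IL-4 + ACs. Within the Type 1 experiment they were thus highest in the ACs group, while the class II sum was highest with IFN-γ + ACs. The member H2-Oa differed from that sum and, like the B cell sums, had its highest mean in the ACs group (26.4). Its mean was 16.1 for E. coli, 12.1 for IFN-γ and 13.0 for the combination. H2-Ob, its partner, had few reads, and its means in the same order were 11.5, 8.9, 3.6 and 4.2. For both genes some libraries of the ACs group overlapped those of other groups. Dendritic cell markers, most of it Itgax (CD11c), summed to 325 to 357 with ACs, 563 to 621 with E. coli + ACs, 410 to 478 with IFN-γ + ACs and 472 to 593 with the combination. In the IL-4 experiment the sums were 278 to 375 with ACs and 418 to 550 with IL-4 + ACs. These sums were above those of the ACs, without overlap, with every stimulus. Eosinophil markers summed to 7604 to 8001 with ACs, 8651 to 9833 with E. coli + ACs, 4859 to 5680 with IFN-γ + ACs and 6942 to 8323 with the combination, and to 9275 to 12354 with ACs and 14094 to 15316 with IL-4 + ACs in the IL-4 experiment. Siglecf was lower by 0.99 on the log2 scale with IFN-γ. Thymocyte markers, the cell type of the ACs, summed to at most 179 in any library. The part of these shifts in the class II results was not tested.

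**Figure D4:**
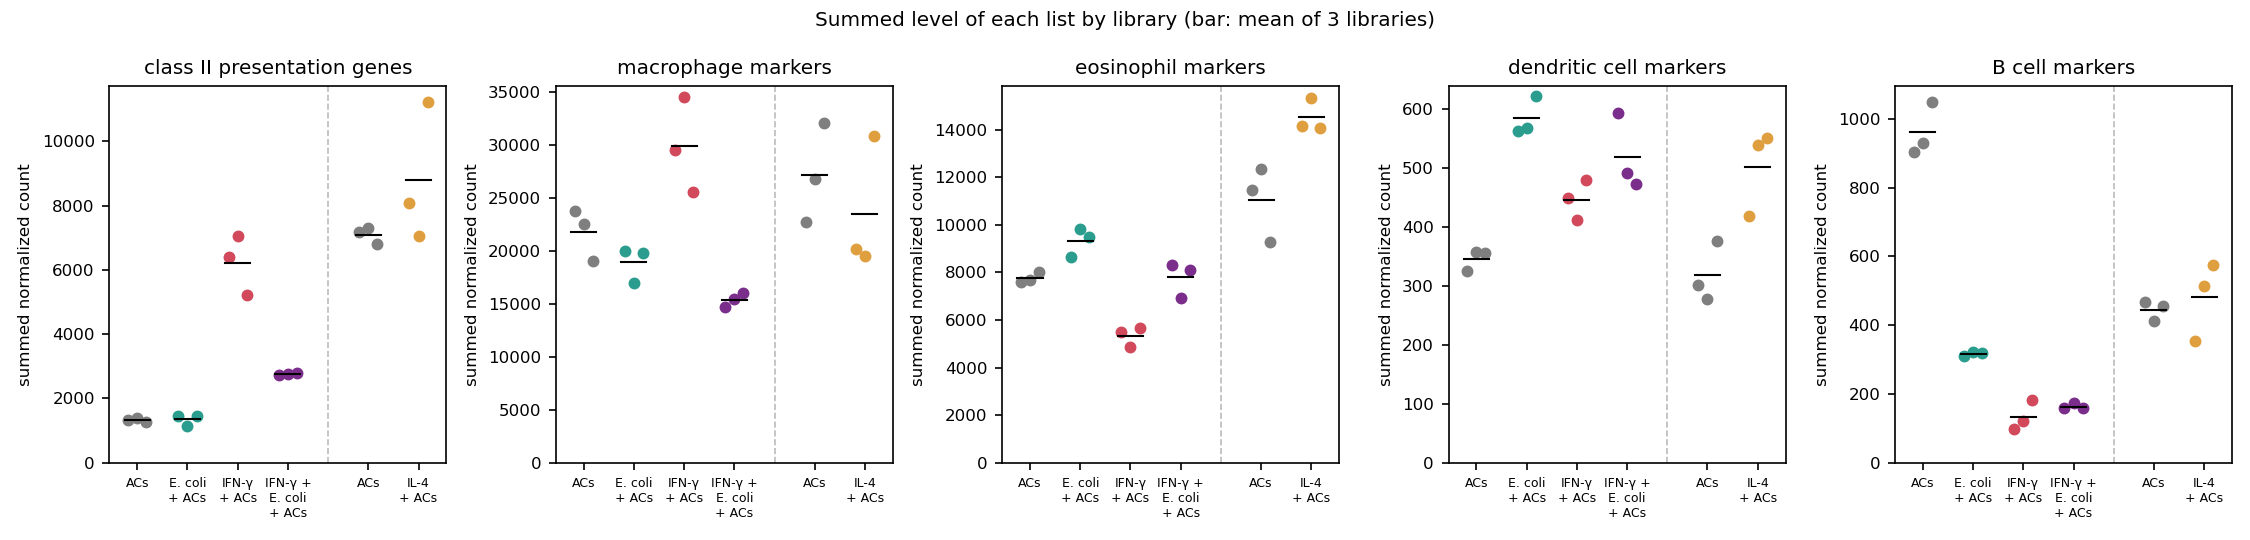
Summed normalized count (vertical axes, linear and starting at 0) of the 8 class II genes and of the macrophage, eosinophil, dendritic cell and B cell marker lists in the 18 libraries, with the mean of each group as a bar. The class II sum was 1272 to 1390 with ACs, 5216 to 7049 with IFN-γ + ACs and 2723 to 2783 with the combination. The macrophage sum was also highest in the IFN-γ group of the Type 1 experiment. With the combination the macrophage sum was at its lowest, below the ACs libraries, whereas the class II sum was above them.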

How the data were processed

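CEL-Seq2 libraries of 18 eosinophil samples were analysed. The authors deposited 1 signal per gene and library, its read count scaled by a DESeq2 size factor. The submitters' notes name TopHat2 2.1.0, HTSeq 0.6.1, DESeq2 1.26.0 and GRCm38, and the methods describe 2 counting pipelines without naming the one behind this table. Values were whole multiples of 1 step per library, so whole reads were recovered for 100.0% of values (tolerance 0.0051 normalized counts) and used only in edgeR and DESeq2.

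Members and lists were chosen with earlier results of these data known. All 8 members are named, and up to 4 genes past the threshold per list and comparison. Gene lists follow textbook roles, and some of their genes are counted but not reported by name here.

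Comparisons used limma 3.58.1 in R 4.3.3 (lmFit, eBayes with trend) on log2(normalized count + 1), for genes with a mean of at least 10: the 12 Type 1 libraries, the 6 IL-4 libraries, or all 18 for the difference between IL-4 and IFN-γ responses. All members but Ciita passed this minimum in every fit, and Ciita in the Type 1 fit only, through its IFN-γ libraries. Leaving Ciita out of the counts of members was decided after its values were seen, as were the settings tried for Pdcd1lg2. Past the threshold means an adjusted p under 0.05 and at least 1.5-fold, as in the study. Promoters came from RefSeq (GRCm38.p6), positions from GENCODE on GRCm38. No exact permutation test of 3 against 3 can give a p below 0.1.

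Between replicates the chi-square per degree of freedom was 4.19 to 14.69, above counting error. Alternatives were a pseudocount of 5, other minimums, a common upper quartile, array weights, the replicate number as a block, edgeR 4.0.16, DESeq2 1.42.0, 1 fit of 18 libraries and leaving out each library. On simulated data with 200 genes changed 4-fold, limma recovered 95% in the IFN-γ design with 17 false calls, 81% in the interaction design with 6 and 90.5% in the IL-4 design with 0. In the design of IL-4 minus IFN-γ it recovered 78.5% with 3. Smaller changes were not simulated, so these shares do not apply to changes near 1.5-fold.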

Additional observations from a re-analysis of the deposited data

Results flagged for a closer look

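The rise with IFN-γ differed with and without E. coli for 5 of the 7 members counted, by the interaction term of the limma fit. Of all genes 4.28% passed in that direction. The interaction was -1.40 for H2-Aa, -1.09 for H2-Ab1, -1.59 for H2-Eb1, -1.79 for H2-DMa and -1.47 for H2-DMb1 on the log2 scale, with adjusted p values from 0.00083 to 0.026. H2-DMa and H2-DMb1 lost the call when some single libraries were left out, as given above. Beside them, Cd74 at -0.82 and H2-Oa at 0.72 were not past the threshold, nor was Ciita, outside the count, at -2.04.

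The response to IL-4 in 1 experiment was below that to IFN-γ in the other for 6 of the 7 members tested. Of all genes 8.09% passed in that direction. The difference was -1.77 for H2-Aa, -2.60 for H2-Ab1, -1.37 for H2-Eb1, -1.62 for Cd74, -2.37 for H2-DMa and -2.04 for H2-DMb1, with adjusted p values from 1.2e-08 to 0.0079. The experiments started from different levels with ACs alone, H2-Aa by a ratio of 5.98. No test for a single outlying library was made with 3 libraries in each group, and single libraries were checked by leaving out each in turn.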

How the results depend on the processing

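Counts here are over all 8 members, Ciita included. Ciita entered the Type 1 fit only through its IFN-γ libraries, so it had to differ and adds no support. Without Ciita 6 of 7 members were past the threshold upward for IFN-γ against ACs, against 11.4% of all genes. For the combination against E. coli it was 4 of 7, against 9.79% of all genes. Of the counts over all 8, those for IFN-γ against ACs upward (7, and 6 to 7 without each library in turn), IFN-γ + E. coli against IFN-γ downward (6 to 6) and IL-4 against ACs (0 to 0) stayed within 1.5 times under all alternatives run. Other counts changed. For E. coli against ACs the downward count of 1 became 0 with a mean of at least 50, where H2-DMb1 is no longer tested, and ranged from 0 to 1 over leave-outs. Over all genes the downward count went from 534 of 10166 to 387 of 6747 with that minimum. For IFN-γ against ACs the downward count of 0 became 1 with array weights, while over all 10166 genes it went from 1013 to 1157. For the combination against ACs the downward count of 0 became 2 with a common upper quartile and 1 with array weights, and ranged from 0 to 2 over leave-outs. Over all 10166 genes that count was 1746, with a common upper quartile 2200 and with array weights 1740. For the combination against E. coli the upward count of 5 became 3 with all genes above 0 and with all 18 libraries in 1 fit, and ranged from 3 to 5. Over all genes that count was 995 of 10166, with all genes above 0 it was 915 of 21845 and in 1 fit 863 of 10414. The interaction count of 5 ranged from 3 to 6. For IL-4 minus IFN-γ the upward count of 0 became 1 (H2-Oa, 1.76) with array weights, while over all 10414 genes it went from 643 to 1142. The causes were not tested.

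Values that changed sign were small and past no threshold. With E. coli, H2-Aa ranged over leave-outs from -0.02 to 0.14, H2-Eb1 from -0.05 to 0.29 and Ciita from -0.26 to 0.99, and Ciita was at -0.05 without ACs replicate 1 or 2. For the combination against IFN-γ, H2-Oa was at -0.02 with a common upper quartile and ranged over leave-outs from -0.35 to 0.36 (-0.22 without IFN-γ replicate 2). With IL-4, the leave-outs gave -0.22 to 0.07 for H2-Ab1, -0.06 to 0.66 for H2-DMa, -0.28 to 0.11 for H2-DMb1 (0.07 without IL-4 replicate 2) and -0.17 to 0.30 for H2-Oa (-0.11 without IL-4 replicate 2). H2-DMb1 with IL-4 was at 0.17 with array weights, 0.01 with edgeR and 0.08 without the shallow libraries.

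Same-numbered libraries did not deviate together (mean r of 0.01 in both experiments), and the main fits used no pairing by number. With 3 libraries per group this cannot show that they were unpaired. With the replicate number as a block, Ciita for the combination against E. coli was still at 2.23 but lost its call (adjusted p 0.054), and no other call of a member changed. Without a minimum level, Ciita gave -0.76 with IL-4 (adjusted p 0.81). Depth limited Ciita, H2-Oa and H2-DM most, above all in the shallow libraries.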
